A study of Homo sapiens with 6 samples.

Results

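The 10 genes described here belong to the Hippo pathway and its transcriptional output: the kinases LATS1 and LATS2, the coactivators YAP1 and WWTR1 (TAZ), the transcription factor TEAD1, the YAP-binding proteins PTPN14, AMOTL1 and AMOTL2, and the secreted YAP targets CCN1 (CYR61) and CCN2 (CTGF). They were taken by gene symbol, each matched 1 identifier of the 57905 in the deposited table, and all 10 passed the expression filter that left 12452 genes for testing. The RNA came from A549, a long-established line grown from a human lung adenocarcinoma. Cells of 3 samples had been given miR-19a and cells of the other 3 the negative control miR-NC, each at 25 nM with Lipofectamine 3000 and with harvest given as 24 h. All 6 samples therefore went through a transfection, and no untransfected sample was analysed here. Nothing in the labels says that samples sharing a group came from separate cultures. The p-values then reflect only how these libraries differ among themselves, and that spread may be technical.

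In the Hippo pathway the kinases STK3 and STK4, with their partner SAV1, activate LATS1 and LATS2 together with the MOB1 proteins. LATS kinases phosphorylate YAP1 and WWTR1, which are then held in the cytoplasm or degraded. Unphosphorylated YAP1 and WWTR1 enter the nucleus and bind TEAD factors, which carry them to DNA. Targets switched on in this way include CCN1 and CCN2 and also inhibitors of YAP1 itself, among them LATS2, AMOTL2 and PTPN14. RNA levels, the quantity measured here, do not report phosphorylation or location of these proteins. In RNA from whole cultures, fewer cells of a type and less RNA per cell cannot be told apart.

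miR-19a is a microRNA that lowers messenger RNAs whose 3′ UTR pairs with its seed, bases 2 to 8. The mature strand from RefSeq (GRCh38.p14) is shown with the seed in capitals, followed by the stretches of member 3′ UTRs that match it, with the match in capitals. They are shown because they are the only matches of 6 bases or more in the 3′ UTRs examined, and because genes that carry the same match moved differently.
miR-19a-3p: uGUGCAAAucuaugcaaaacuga
PTPN14: tgacagtatttTTTGCACtgtttcctatct
CCN2: aaagttacatgTTTGCACctttctagttga
TEAD1: cagagctgtccTTTGCACtgtaggagattt
AMOTL1: tctgaatgatcTTGCACtcctcttaagcaa

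Positions are on GRCh38 with GENCODE v29 transcripts, from a match made here and not from the deposited table. Each match lay in the 3′ UTR and within the last exon of its transcript. The match of PTPN14, a 7mer-m8 (TTTGCAC, pairing with the whole seed), was at chr1:214348886-214348892 on the minus strand, in exon 19, at base 9030 of a 3′ UTR of 9226 bases. CCN2 had a 7mer-m8 at chr6:131948215-131948221 on the minus strand, in exon 5, at base 1043 of 1088. The 7mer-m8 of TEAD1, at chr11:12940291-12940297 on the plus strand, was in the 3′ UTR of 7261 bases of transcript TEAD1-203, and not in the 812 bases of TEAD1-206, the transcript with the longest coding sequence. AMOTL1 had a 6mer (TTGCAC) at chr11:94874951-94874956 on the plus strand, in exon 13. No member had an 8mer (TTTGCACA) or a 7mer-A1 (TTGCACA), and no coding sequence of a member held a match of 7 bases or more. With the transcript of the longest coding sequence, 2 of 10 members had a match of at least 7 bases in the 3′ UTR, beside 18.7% of 10551 tested genes with a UTR. With the longest 3′ UTR the count was 3 of 10, beside 22.1%.

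**Figure D1:**
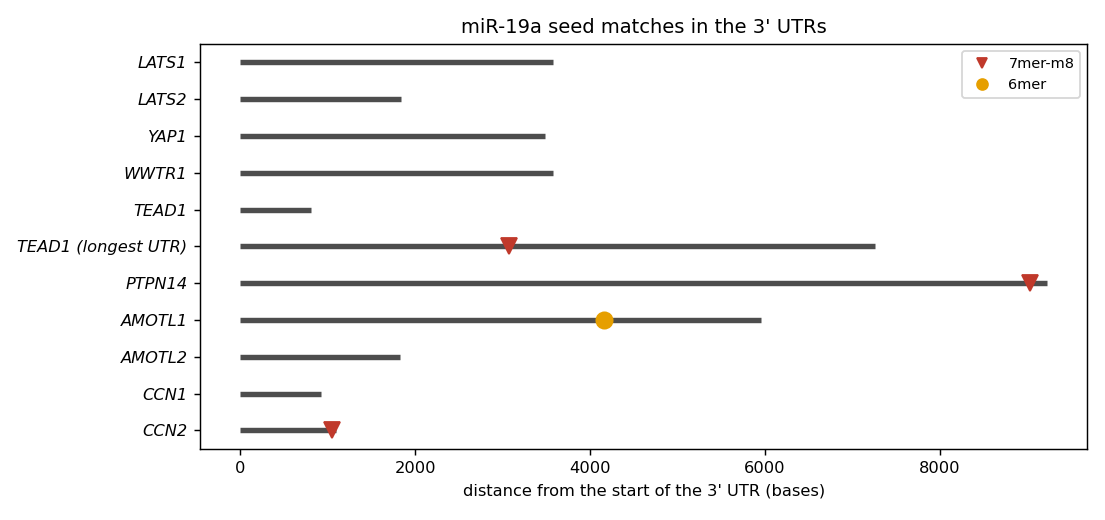
miR-19a seed matches in the 3′ UTRs of the 10 genes, drawn to scale. The horizontal axis is the distance in bases from the start of the 3′ UTR, each bar is the UTR of the transcript with the longest open reading frame, and TEAD1 is also drawn with its longest UTR; triangles are 7mer-m8 matches and the circle is a 6mer. The matches of PTPN14 (base 9030) and CCN2 (base 1043) lie near the end of their UTRs, and LATS1, LATS2, YAP1, WWTR1, AMOTL2 and CCN1 have none.

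Among the 10 genes, edgeR's quasi-likelihood test called 4 higher and 3 lower in miR-19a at an adjusted p of 0.05, and 3 did not pass. Of all genes tested, 48.4% passed, 24.9% as higher and 23.5% as lower, so a large share of any list is called in these data. LATS2, LATS1, YAP1 and WWTR1 rose, while PTPN14, TEAD1 and AMOTL2 fell. CCN1, CCN2 and AMOTL1 did not pass. The 7 genes that passed were those whose groups did not overlap in normalised counts (CPM, counts relative to the library total scaled by TMM factors), a state reached by 54% of tested genes. Counts behind these values lay between 332 and 3816 per gene and library. Within a group the coefficient of variation of a member's CPM lay between 0.442% (WWTR1 in miR-19a) and 7.63% (CCN2 in miR-19a).

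**Figure D2:**
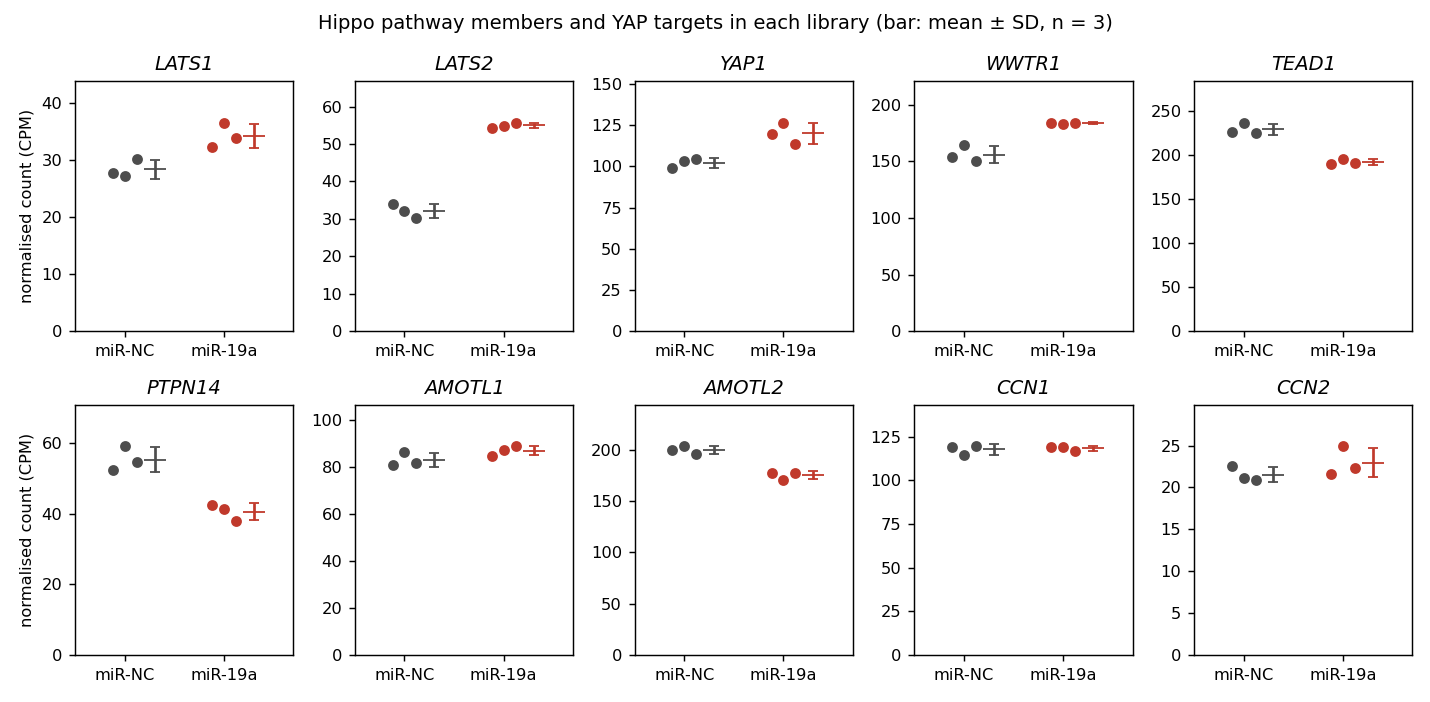
Normalised counts (CPM, vertical axes from 0) of each gene in the 3 miR-NC libraries (grey) and the 3 miR-19a libraries (red), with the mean and SD of each group beside the points. The groups are apart for LATS1, LATS2, YAP1, WWTR1, TEAD1, PTPN14 and AMOTL2, and overlap for AMOTL1, CCN1 and CCN2.

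LATS2 (ENSG00000150457, chromosome 13), a kinase that inhibits YAP1 and WWTR1, moved most. It stood at 34.0, 32.0 and 30.3 CPM in miR-NC replicates 1 to 3 and at 54.4, 54.8 and 55.7 CPM in miR-19a replicates 1 to 3. Every miR-19a library was far above every control library, and the spread among the miR-19a libraries was small. The log2 fold change was 0.78 (95% interval 0.66 to 0.90, edgeR adjusted p = 8.7e-18), a 1.71-fold rise from 32.1 ± 1.86 to 55.0 ± 0.64 CPM (SD, n = 3 per group). A change of at least this size in either direction was found in 5.01% of tested genes.

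LATS1 (ENSG00000131023, chromosome 6), the other LATS kinase, had 27.7, 27.3 and 30.3 CPM in miR-NC and 32.4, 36.6 and 33.9 CPM in miR-19a. The groups did not overlap, but the highest control library and the lowest miR-19a library were close. The rise was 0.27 on the log2 scale (95% interval 0.14 to 0.41, edgeR adjusted p = 6.5e-04). The intervals of LATS1 and LATS2 did not overlap. The log2 ratio of LATS2 to LATS1 within a library was 0.30, 0.23 and 0.00 in miR-NC and 0.75, 0.58 and 0.72 in miR-19a, a difference of 0.51. For this ratio the exact two-sided permutation test over samples gave p = 0.10 (adjusted p = 0.20 over 4 pairs of paralogs), and 0.10 is the smallest p that 3 against 3 allows.

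The coactivators rose by similar amounts. YAP1 (ENSG00000137693, chromosome 11) had 98.7, 102.9 and 104.4 CPM in miR-NC and 119.6, 126.4 and 113.8 CPM in miR-19a, a log2 fold change of 0.23 (95% interval 0.14 to 0.33, edgeR adjusted p = 1.4e-05). WWTR1 (ENSG00000018408, chromosome 3), the paralog also called TAZ, had 154.0, 164.2 and 150.1 CPM in miR-NC and 184.2, 182.8 and 184.1 CPM in miR-19a, again a log2 fold change of 0.23 (95% interval 0.15 to 0.32, edgeR adjusted p = 1.7e-06). For each gene all miR-19a libraries were above all control libraries. The log2 ratio of WWTR1 to YAP1 was 0.61 ± 0.0791 in miR-NC and 0.62 ± 0.0811 in miR-19a (SD, n = 3), and the exact permutation test gave p = 0.90. An antisense gene, WWTR1-AS1, shares 795 exon bases with WWTR1 and had 10 to 20 counts per library, against at least 2380 for WWTR1. No source used here says whether the counting used strand.

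TEAD1 (ENSG00000187079, chromosome 11), a DNA-binding partner of the coactivators, changed the opposite way. Its level was 226.4, 236.4 and 224.6 CPM in miR-NC and 189.9, 195.7 and 190.7 CPM in miR-19a, so that every control library was the higher. It fell by 0.25 on the log2 scale (95% interval -0.33 to -0.18, edgeR adjusted p = 1.0e-07). Of the other members of the family, TEAD3 also fell, with a log2 fold change of -0.39 (SE 0.13, edgeR adjusted p = 0.00924) from only 112 to 167 counts per library. That call ended when miR-19a replicate 2 was left out (-0.33, adjusted p = 0.0556), and also when miR-NC replicate 1 was (-0.33, adjusted p = 0.0597). TEAD2 (-0.17, adjusted p = 0.0566) and TEAD4 (0.13, adjusted p = 0.112) did not pass with TMM factors. TEAD2 passed in edgeR with library totals alone (-0.19, adjusted p = 0.036), in limma at both pseudocounts (adjusted p = 0.0336 for each) and without miR-19a replicate 3 (-0.22, adjusted p = 0.0278). TEAD4 passed without miR-19a replicate 2 (0.19, adjusted p = 0.0462). TEAD1 made up 47.0% ± 0.753 of the summed level per length (FPKM) of TEAD1 to TEAD4 in miR-NC and 43.2% ± 1.89 in miR-19a (SD, n = 3), and the sum itself was 45.3 ± 0.676 and 40.9 ± 1.47 FPKM.

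PTPN14 (ENSG00000152104, chromosome 1), a phosphatase that binds YAP1 and restrains it, had the largest fall of the members. Its level was 52.2, 59.0 and 54.7 CPM in miR-NC against 42.4, 41.2 and 37.8 CPM in miR-19a. The lowest control library was well above the highest miR-19a library. The gene fell by 0.45 on the log2 scale (95% interval -0.57 to -0.33, edgeR adjusted p = 2.2e-09), to 0.73 of the control level. PTPN14 carries the 7mer-m8 shown above. Over the 780 tested genes whose strongest match is of that class the median log2 fold change was -0.06, and 59.4% of them were below 0. Over the 7608 genes with no match the median was 0.03, and 45.8% were below 0. Whether the match has a part in the fall of PTPN14 was not tested.

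Angiomotin-like proteins bind YAP1 and LATS kinases at cell junctions. AMOTL2 (ENSG00000114019, chromosome 3) had 199.2, 203.0 and 195.8 CPM in miR-NC and 176.9, 170.6 and 177.6 CPM in miR-19a. All 3 miR-19a libraries were below the controls, and AMOTL2 fell by 0.19 on the log2 scale (95% interval -0.27 to -0.11, edgeR adjusted p = 5.6e-05). AMOTL1 (ENSG00000166025, chromosome 11) had 80.8, 86.2 and 81.7 CPM in miR-NC and 84.7, 87.2 and 88.7 CPM in miR-19a, and the groups overlapped. Its log2 fold change of 0.07 did not pass (95% interval -0.03 to 0.16, edgeR adjusted p = 0.247). The log2 ratio of AMOTL2 to AMOTL1 went from 1.27 ± 0.0328 to 1.01 ± 0.0479 (SD, n = 3), with no overlap between groups and p = 0.10 by the exact permutation test (adjusted p = 0.20 over 4 pairs). The third gene of the family, AMOT, was at 0 to 3 counts per library.

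CCN1 (ENSG00000142871, chromosome 1), a secreted matrix-associated protein and a standard readout of YAP activity, had 119.3, 114.3 and 119.4 CPM in miR-NC and 118.8, 119.2 and 116.8 CPM in miR-19a. The 3 miR-19a values lay inside the range of the controls. Its log2 fold change was 0.01, and the 95% interval of -0.08 to 0.09 holds folds between 0.95 and 1.07 (edgeR adjusted p = 0.906). CCN2 (ENSG00000118523, chromosome 6), a related secreted protein and another standard readout, was at 22.6, 21.1 and 20.9 CPM in miR-NC and 21.6, 24.9 and 22.3 CPM in miR-19a. The highest value was miR-19a replicate 2, and the other 5 libraries lay together. The log2 fold change was 0.09 (95% interval -0.07 to 0.25, edgeR adjusted p = 0.363), which leaves folds from 0.95 to 1.19 possible at 332 to 427 counts per library. Without miR-19a replicate 2 it was 0.02 (adjusted p = 0.856). CCN2 carries a 7mer-m8 like PTPN14, but its interval did not overlap that of PTPN14. The log2 ratio of CCN2 to CCN1 was -2.45 ± 0.0584 in miR-NC and -2.37 ± 0.102 in miR-19a (SD, n = 3), and the exact permutation test gave p = 0.40.

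**Figure D3:**
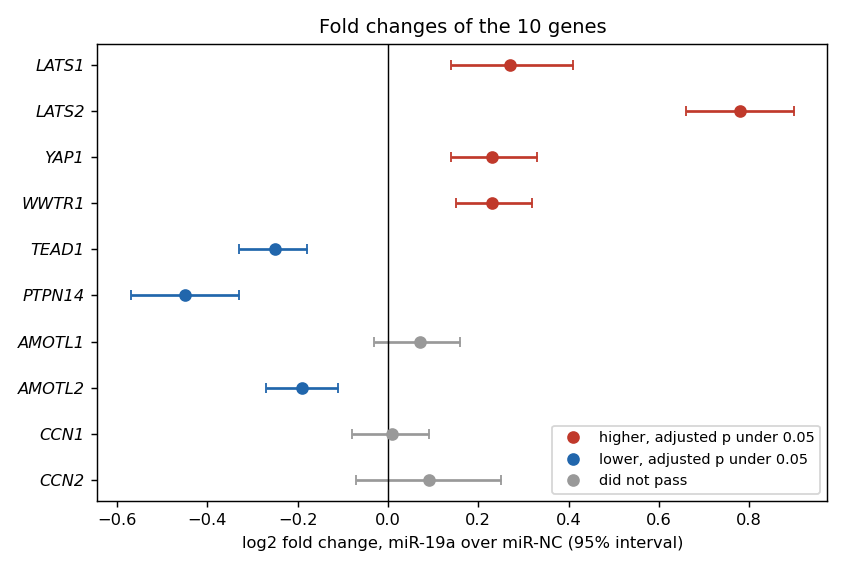
Log2 fold change of each gene in miR-19a over miR-NC from edgeR (horizontal axis), with 95% intervals; red genes were called higher, blue genes lower, and grey genes did not pass. LATS2 stands apart at 0.78, LATS1, YAP1 and WWTR1 lie between 0.23 and 0.27, PTPN14 is lowest at -0.45, and the intervals of AMOTL1, CCN1 and CCN2 include 0.

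TEAD factors bind the sequence CATTCC. The same motif read from the opposite strand of the DNA is GGAATG. The promoters of CCN2 and LATS2, the readout that did not pass and the gene with the largest change, are shown from RefSeq (GRCh38.p14) as windows of 300 bases in the direction of transcription, with this motif in capitals.
CCN2: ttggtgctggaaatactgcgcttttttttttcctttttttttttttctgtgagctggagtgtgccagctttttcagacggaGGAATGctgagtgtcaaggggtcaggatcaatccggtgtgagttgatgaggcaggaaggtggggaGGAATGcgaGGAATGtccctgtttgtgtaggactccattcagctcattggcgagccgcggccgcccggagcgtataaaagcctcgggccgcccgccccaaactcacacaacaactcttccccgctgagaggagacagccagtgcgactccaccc
LATS2: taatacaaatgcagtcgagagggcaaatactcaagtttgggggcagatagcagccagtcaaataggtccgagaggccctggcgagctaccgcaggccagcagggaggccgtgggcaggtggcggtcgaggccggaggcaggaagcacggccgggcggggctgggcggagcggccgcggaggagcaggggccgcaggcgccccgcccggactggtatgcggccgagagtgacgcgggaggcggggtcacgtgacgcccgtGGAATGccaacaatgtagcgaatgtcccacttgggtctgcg

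The CCN2 window, chr6:131951323-131951622 on the minus strand, held 3 matches, at -169, -104 and -95 relative to the annotated start, and 0.128% of 35116 promoter windows of this length held as many. In the LATS2 window, chr13:21061537-21061836 on the minus strand, a single match lay 9 bases past the start. YAP1, PTPN14 and AMOTL2 also had a match, so that 5 of 8 members with a window, and 5 of their 11 windows, held at least 1, beside 14% of all windows. A match of these letters is a description of the window. Genes with a match included members that rose (LATS2 and YAP1), members that fell (PTPN14 and AMOTL2) and CCN2, which did not pass.

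Levels between genes were compared as the authors' FPKM (fragment counts scaled for gene length and sequencing depth). In miR-NC the order was CCN1 (48.2 ± 1.39 FPKM, SD, n = 3), AMOTL2 (33.5 ± 0.461), TEAD1 (21.3 ± 0.503), WWTR1 (18.7 ± 0.791), YAP1 (16.3 ± 0.494), CCN2 (9.27 ± 0.398), AMOTL1 (8.31 ± 0.254), LATS2 (5.62 ± 0.313), LATS1 (3.31 ± 0.204) and PTPN14 (2.96 ± 0.176), with no overlap between the libraries of neighbours. In miR-19a the order changed at the middle. WWTR1 (21.7 ± 0.0781 FPKM) and YAP1 (18.9 ± 1.01) stood above TEAD1 (17.7 ± 0.303), and LATS2 (9.52 ± 0.107) above AMOTL1 (8.61 ± 0.203). Neighbours whose libraries overlapped in miR-19a were YAP1 with TEAD1 and CCN2 (9.76 ± 0.756) with LATS2. The summed FPKM of LATS1 and LATS2 was 8.92 ± 0.225 in miR-NC and 13.5 ± 0.282 in miR-19a. LATS2 made up 64.9%, 63.8% and 60.1% of it in the control libraries and 71.7%, 69.3% and 71.2% in the miR-19a libraries. For YAP1 and WWTR1 the sum was 34.9 ± 0.884 and 40.7 ± 0.945 FPKM. Gene lengths implied by the counts and FPKM came close to those covered by all GENCODE v29 exons for most members, such as 18742 against 18756 for PTPN14 and 2455 against 2455 for CCN1, and lay further off for LATS2 (5742 against 5578) and TEAD1 (10816 against 10279). The low FPKM of PTPN14 therefore rests on a long gene model, with more counts per library (675 to 952) than CCN2.

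**Figure D4:**
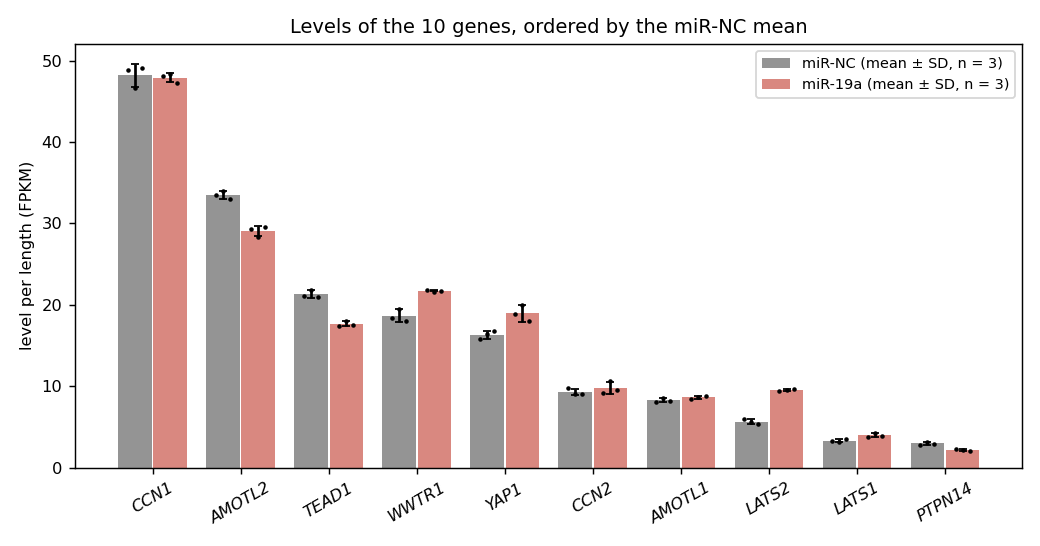
Level per length (FPKM, vertical axis from 0) of the 10 genes in miR-NC (grey) and miR-19a (red), as mean bars with SD (n = 3) and a point per library, ordered by the miR-NC mean. CCN1 is highest near 48 FPKM in each group, TEAD1 drops below WWTR1 and YAP1 in miR-19a, and PTPN14 is lowest.

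The rest of the pathway was split in direction. Of 37 other Hippo pathway genes 34 were tested, with 10 higher, 9 lower and 15 that did not pass, and a median log2 fold change of -0.01 beside 0.00 for all genes tested. The 19 called are 55.9% of the list, near the 48.4% over all genes. In the core cassette upstream of LATS, STK3 (-0.15, edgeR adjusted p = 0.0926), STK4 (-0.01, adjusted p = 0.88), SAV1 (-0.01, adjusted p = 0.954), MOB1A (-0.04, adjusted p = 0.479) and MOB1B (0.18, adjusted p = 0.0742) did not pass. Without miR-19a replicate 1, STK3 was at -0.06 (adjusted p = 0.55). MOB1B passed when miR-19a replicate 3 was left out (0.25, adjusted p = 0.0366), and also when miR-NC replicate 2 was (0.28, adjusted p = 0.0086). NF2, the merlin tumour suppressor, was called lower (-0.20, edgeR adjusted p = 0.0201). That call ended without miR-19a replicate 1 (-0.20, adjusted p = 0.0510), miR-19a replicate 2 (-0.16, adjusted p = 0.113) or miR-NC replicate 2 (-0.12, adjusted p = 0.214), and with DESeq2 (adjusted p = 0.0650) and limma.

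Kinases that act beside STK3 and STK4 on LATS moved in different directions. TAOK1 fell by 0.33 on the log2 scale (SE 0.039, edgeR adjusted p = 6.0e-11) and had an 8mer among 3 matches of at least 7 bases in its 3′ UTR. MAP4K3, also with an 8mer, fell by 0.32 (SE 0.06, adjusted p = 6.8e-06), whereas MAP4K4 rose by 0.21 (SE 0.039, adjusted p = 9.3e-06). MAP4K2, with a 7mer-m8, rose by 0.43 (SE 0.084, adjusted p = 1.6e-05). CSNK1E, a casein kinase that phosphorylates YAP1 after LATS, fell by 0.25 (SE 0.048, adjusted p = 1.4e-05).

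At the membrane, FAT1, a giant protocadherin upstream of the pathway, rose from 480.3 ± 12.9 to 857.4 ± 9.58 CPM (SD, n = 3). Its log2 fold change of 0.84 (SE 0.036, edgeR adjusted p = 1.4e-30) exceeded that of LATS2. FRMD6, a FERM-domain protein, fell by 0.43 (SE 0.06, adjusted p = 9.4e-09). Among LIM proteins that inhibit LATS, WTIP rose by 0.71 (SE 0.061, adjusted p = 4.3e-16) with a 7mer-m8 in its 3′ UTR, and AJUBA fell by 0.21 (SE 0.043, adjusted p = 3.2e-05).

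VGLL3 and VGLL4, vestigial-like cofactors that bind TEAD factors, both rose. VGLL3, which carries a 7mer-m8, had 18.6, 20.5 and 18.9 CPM in miR-NC against 36.5, 39.0 and 35.8 CPM in miR-19a, and rose by 0.94 on the log2 scale (SE 0.072, edgeR adjusted p = 4.3e-18). For VGLL4, an inhibitor of YAP1 and TEAD activity, the means were 42.8 and 62.2 CPM, and it rose by 0.54 (SE 0.058, adjusted p = 2.2e-12).

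A published signature of 22 YAP/TAZ targets moved in opposite directions. Of 21 tested genes 6 rose, 9 fell and 6 did not pass, with a median log2 fold change of 0.01. The signature holds 5 of the members (LATS2, AMOTL2, PTPN14, CCN1 and CCN2). Without them 5 rose and 7 fell of 16 tested, and the median was 0.00. The 15 called are 71.4% of the list, beside 48.4% of all genes, and no test of the list was made. Among genes that rose, TGFB2, a growth factor with a 7mer-m8, had a log2 fold change of 0.69 (SE 0.056, edgeR adjusted p = 4.6e-17). CRIM1, a membrane protein that binds growth factors, rose by 0.44 (SE 0.035, adjusted p = 3.0e-17), the ectonucleotidase NT5E by 0.42 (SE 0.047) and the kinase NUAK2 by 0.37 (SE 0.042). ANKRD1, a nuclear cofactor and, beside CCN1 and CCN2, a standard YAP readout, rose from 16.2 ± 0.427 to 21.5 ± 1.34 CPM, a change of 0.40 (SE 0.084, adjusted p = 4.4e-05).

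On the other side, IGFBP3, a secreted binding protein of insulin-like growth factors, had 160.4, 152.1 and 197.7 CPM in miR-NC and 70.1, 70.2 and 66.8 CPM in miR-19a. The control libraries were spread more widely than the miR-19a libraries but stayed far above them. The log2 fold change of IGFBP3 was -1.30 (SE 0.055, edgeR adjusted p = 3.0e-31), the largest of the signature. With single libraries left out it ranged from -1.37 (without miR-NC replicate 2) to -1.18 (without miR-NC replicate 3). Its SE depended on the method, at 0.12 in DESeq2 and 0.047 in edgeR with the replicate block. FJX1, a secreted kinase-related protein, fell by 0.95 (SE 0.06, adjusted p = 4.6e-22), the GTPase regulator ASAP1 by 0.39 (SE 0.039) and the membrane repair protein MYOF by 0.23 (SE 0.035). Matches named for genes of both lists are those of the transcript with the longest coding sequence. There STK3 also had a 7mer-A1 and STK4 a 7mer-m8. A 7mer-m8 was also present in FOXF2, which was called lower (-0.29, edgeR adjusted p = 0.00971), and in LIMD1, which did not pass (-0.06, adjusted p = 0.269). With the longest 3′ UTR, IGFBP3, FRMD6 and MOB1B had an 8mer and VGLL4 a 7mer-m8. Tested signature genes with an 8mer were F3 (0.15) and DOCK5 (-0.07), which did not pass, and CCDC80 (-0.25), which was called lower.

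**Figure D5:**
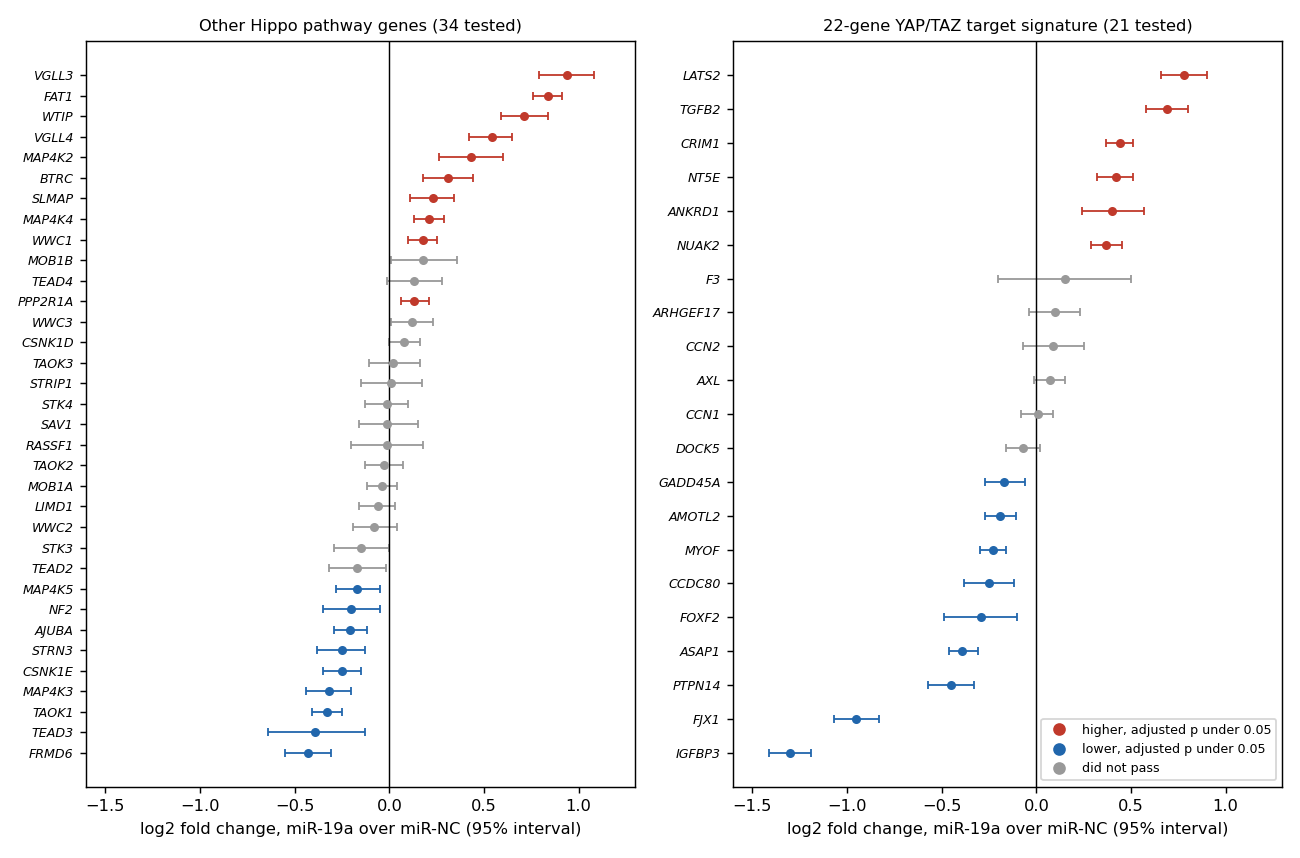
Log2 fold change in miR-19a over miR-NC (horizontal axes, edgeR, 95% intervals) of the 34 tested other Hippo pathway genes (left) and of the 21 tested genes of the YAP/TAZ signature (right), sorted by value; red is higher, blue lower, grey did not pass. Each list spreads to both sides of 0, from FRMD6 at -0.43 to VGLL3 at 0.94 on the left and from IGFBP3 at -1.30 to LATS2 at 0.78 on the right.

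The libraries held 15699037 to 17957932 counts, and none stood apart: the chi-square per gene between 2 libraries was 1.59 to 4.15 within a group, above sampling noise, and 26.6 to 30.2 across groups. Keratins KRT8, KRT18 and KRT7 and the enzymes ALDH1A1 and AKR1B10 were abundant, as A549 is known for, whereas the lung lineage markers NKX2-1 and SFTPC were at 0 or 1 count and the epithelial marker EPCAM at 15 to 42 counts per library. The summed level of 7 fibroblast markers was 13.2 to 15.9 CPM in miR-NC and 27.3 to 32.6 CPM in miR-19a. COL1A1 gave most of it (8.86 and 25.4 CPM on average), then THY1 (5.25 and 3.65 CPM). COL1A2, LUM and DCN had 0 to 7 counts per library, COL3A1 2 to 10 and PDGFRB 2 to 3. CCN1, CCN2 and TGFB2 are also expressed by fibroblasts. The labels name A549 cells only, and whether any other cells contributed to these values was not tested. Immune markers summed to 1.51 to 2.35 and 2.77 to 3.36 CPM, nearly all of it CD14 (1.91 and 2.90 CPM on average), with PTPRC at 0.021 and 0.0792 CPM and CD3E at 0. The 2 endothelial markers that matched summed to less than 1 CPM.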

How the data were processed

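Libraries of the 6 A549 samples were made with poly(A) selection and read from both ends for 150 nt, per the labels' protocols. The submitters' processing notes name bcl2fastq 2.17.1.14. No source used here gives the aligner, the counter, the annotation, the genome build or the strand setting. The deposited table holds whole-number counts per gene, not normalized. Beside them stand the authors' FPKM, which correct the counts for the length of the gene and the depth of the library. Small RNAs such as the transfected microRNA are not captured by poly(A) selection, so its level was not checked.

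The 12452 genes whose FPKM averaged 1 or more were tested in edgeR 4.0.16 under R 4.3.3 (quasi-likelihood, two-sided, TMM, Benjamini-Hochberg over all genes tested, threshold 0.05). The standard error of a log2 fold change was taken as its size divided by the root of the F statistic, and 95% intervals use the test's degrees of freedom. Ratios of paralogs were tested by exact permutation over samples (scipy 1.17.1). Seed matches were searched in GENCODE v29 transcripts. The CATTCC motif was searched on both strands of RefSeq promoter windows (300 bases around a start); TEAD1 and CCN1 had no window in the table. Counts were also simulated for 12452 genes, with 1 dispersion shared by all genes and 12252 genes unchanged. Of 50 genes each, 34, 44, 46 and 50 were recovered at 1.25, 1.5, 2 and 4 fold, and 4 unchanged genes were called. Dispersions differ between genes in the data and far more genes were called, so these rates may not carry over. Folds below 1.25, such as those of LATS1, YAP1, WWTR1, TEAD1 and AMOTL2, were not simulated.

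The members and lists were chosen with earlier results of these data known. Of each list, at most 5 higher and 5 lower genes with the smallest adjusted p are named, with TEAD2 to TEAD4. ANKRD1, MAP4K2, NF2, AMOT, F3, DOCK5, CCDC80, FOXF2, LIMD1 and the core cassette were named after their values were seen. Alternatives were other size factors, DESeq2 1.42.0, limma 3.58.1 on log2(FPKM + 1) or log2(FPKM + 0.1), other filters, a fold minimum, a replicate block, the longest 3′ UTR and each library left out.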

Additional observations from a re-analysis of the deposited data

How the results depend on the processing

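Requiring an absolute log2 fold change of at least 1 ended all 7 member calls and left 129 genes higher and 113 lower. Under each of the other alternatives in which the gene was tested, the calls of these 7 held; LATS1 and PTPN14 were not tested with a minimum mean FPKM of 5, where 3 members were higher and 2 lower. The log2 fold change of LATS2 ranged from 0.67 to 0.82 and that of PTPN14 from -0.49 to -0.33, with the smallest sizes from limma on log2(FPKM + 1), which understates low genes. CCN1 changed sign without passing, at -0.01 with library totals alone and with limma at either pseudocount, and from -0.01 to 0.02 with single libraries left out. The difference in the WWTR1 to YAP1 ratio ranged from -0.04 to 0.04 over the libraries left out. SAV1 was at 0.0012 without a filter and from -0.05 to 0.06 with libraries left out, and STK4 from -0.06 to 0.06. The same replicate numbers occur in each group. Deviations from the group means of same-numbered samples correlated at -0.00449, 0.00944 and -0.037, none above the highest value between differently numbered samples (0.027). No shared effect of the number was seen, but these values cannot tell whether same-numbered samples were handled together. With the replicate block 3083 genes were higher and 2903 lower, against 3095 and 2928 without it, and the members called were 4 higher and 3 lower as before. The median of all genes moved by no more than 0.02 on the log2 scale under any scaling. Counts of CCN2 and TEAD3 limit what can be seen of small changes there.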
